A study of Homo sapiens with 10 samples.

Results

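A set of 9 genes of the neurexin, neuroligin and contactin families was followed through the differentiation of human embryonic stem cells into neuroectodermal cells. They were chosen by name: NRXN2 and NRXN3, NLGN1, NLGN2 and NLGN3, CNTN1 and CNTN2, and CNTNAP1 and CNTNAP2, which are 9 of the 31017 genes in the count table. The promoter of each gene was taken as the captured HindIII restriction fragment (bait) that holds its start in the count table. All 9 had one, out of 21833 baits in the interaction lists. The cells were H9 (WA09) embryonic stem cells (ESCs), an established line grown in Pluripro medium and matrix, and neuroectodermal cells (NECs) differentiated from the same line and harvested on day 7. The groups differ by the differentiation protocol, and both come from 1 cell line. RNA-seq and Promoter Capture Hi-C (PCHi-C) were each done on 2 biological replicates of each cell type.

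Neurexins are presynaptic adhesion proteins that bind neuroligins on the postsynaptic membrane, and the pair aligns the release machinery of one neuron with the receptors of the next. NLGN1 is mostly found at excitatory synapses, NLGN2 at inhibitory synapses and NLGN3 at both. Contactins are immunoglobulin-like adhesion proteins anchored to the membrane by a lipid, and contactin-associated proteins (CNTNAPs, also called Caspr proteins) are relatives of the neurexins that pair with them where myelin attaches to axons. All 4 families are known for their work in differentiated neurons, and variants of several members have been linked to autism and related conditions.

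Reads counted on genes numbered 19234087 to 25356382 per library, and 17564 genes passed the filter for low counts and were tested. Expression levels are given as CPM, the count scaled to a fixed normalised library size. A gene was called when edgeR's quasi-likelihood test gave a Benjamini-Hochberg adjusted p under 0.05 together with a log2 fold change above 1.5 in size. Of all tested genes, 11.4% were called higher in NECs and 9.68% lower, 21.0% in either direction, while 61.1% had an adjusted p under 0.05 at any fold change. Markers followed the labels, since 8 of 10 pluripotency genes were called lower in NECs and 10 of 10 neuroectoderm genes higher. Among neuron markers, 6 of 12 were called higher and none lower, and their summed level was 351 and 366 CPM in the ESC libraries and 422 and 389 CPM in the NEC libraries. The higher markers were STMN2, DCX, ELAVL3, ELAVL4, SNAP25 and MAPT. The other 6 were not called, with log2 fold changes of 0.66 for INA, 0.39 for SYP, 0.01 for TUBB3, −0.003 for SYT1, −0.47 for RBFOX3 and −0.95 for GAP43. Of the other lineages, 5 of 10 neural crest genes were called higher and 1 lower, 3 of 8 glial genes higher and 3 lower, and 7 of the 8 mesendoderm genes tested lower. The neural crest genes summed to 196 and 188 CPM in ESCs and to 278 and 140 CPM in NECs, and SOX10 counted 393 reads in the first NEC library and 17 in the other. The part of these markers and of the neuron markers in the values of the 9 genes was not tested. The ESC libraries shared a sequencing lane and the NEC libraries shared a different one, so lane and cell type cannot be told apart. In bulk RNA, fewer cells of a type and less RNA per cell cannot be told apart either.

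Of the 9 genes, 5 were called higher in NECs and 1 was called lower, against the 11.4% and 9.68% of all tested genes given above. The 5 higher genes were NRXN2, NRXN3, NLGN3, CNTN2 and CNTNAP1, and the lower gene was CNTN1. NLGN1, NLGN2 and CNTNAP2 were not called. All 9 had an adjusted p under 0.05 at any fold change, 7 of them with a positive and 2 with a negative log2 fold change. The median log2 fold change of the 9 genes was 2.12, beside 0.01 for all tested genes.

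**Figure D1:**
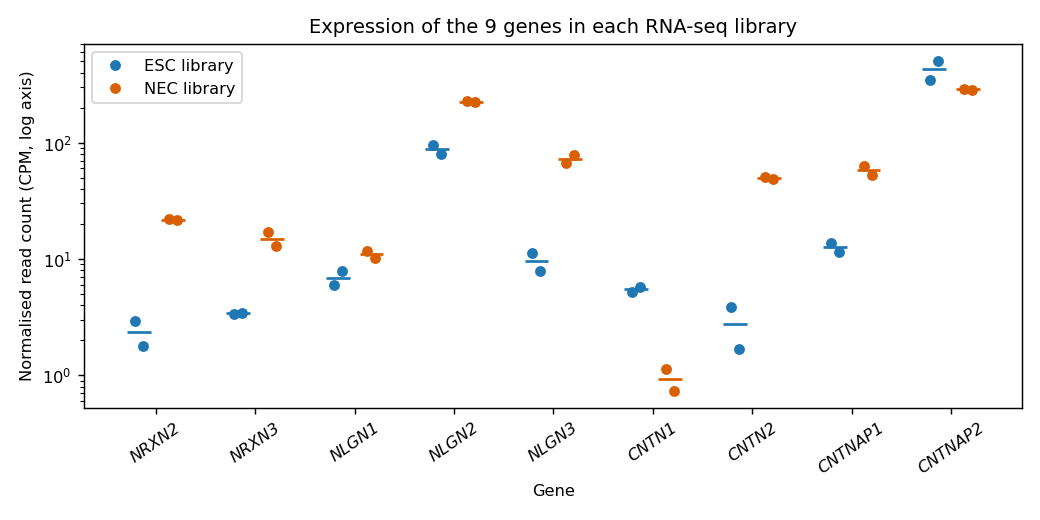
Normalised read count (CPM, log axis) of the 9 genes in each RNA-seq library. Points are single libraries, with ESCs in blue and NECs in orange, and bars are the means of 2 libraries. CNTN2 shows the widest gap, from a mean of 2.78 to 49.7 CPM, and CNTN1 and CNTNAP2 are the genes with the NEC points below the ESC points.

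The start regions of 2 genes that were called higher are shown first, because they differ widely in base composition. Each sequence runs from 250 bases before the gene start in the count table through the first 50 bases of the gene. Both were read 5′ to 3′ along the coding strand of the GRCh37 assembly, and capitals mark CpG dinucleotides. For NRXN3 the window lies at the start in the count table, and the canonical transcript of the later annotation used for transcript lengths starts 72018 bases upstream, in a fragment that is not a bait in the lists.
NRXN3, chr14:78708484-78708783, plus strand: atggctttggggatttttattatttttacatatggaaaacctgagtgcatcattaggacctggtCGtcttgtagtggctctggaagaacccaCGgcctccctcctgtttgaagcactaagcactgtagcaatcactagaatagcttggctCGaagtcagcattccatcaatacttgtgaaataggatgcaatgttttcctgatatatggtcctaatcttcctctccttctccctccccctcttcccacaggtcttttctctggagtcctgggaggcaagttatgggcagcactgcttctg
CNTN2, chr1:205012075-205012374, plus strand: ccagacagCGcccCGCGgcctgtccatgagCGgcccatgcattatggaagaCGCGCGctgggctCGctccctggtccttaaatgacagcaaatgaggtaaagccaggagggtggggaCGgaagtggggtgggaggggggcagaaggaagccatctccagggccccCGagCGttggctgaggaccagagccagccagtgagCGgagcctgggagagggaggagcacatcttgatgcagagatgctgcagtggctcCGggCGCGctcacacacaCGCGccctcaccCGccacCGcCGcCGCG

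The NRXN3 window held 3 CpGs and the CNTN2 window 22, against a median of 10 over the 30965 gene starts for which such a window could be read, although both genes were called higher. A window was counted as CpG-rich when at least 50% of its bases were G or C and its CpG number was at least 0.6 of that expected from its base composition. NRXN2, NLGN1, NLGN3, CNTN2 and CNTNAP2 met this, 5 of the 9 genes, as did 40.6% of all windows. The 4 windows that did not meet it belonged to NRXN3, NLGN2, CNTN1 and CNTNAP1. Genes called higher were thus found on both sides of this limit, also with NRXN3 left out, through CNTNAP1. The NRXN3 window is not at the canonical transcript start. Its bases before the counted start end in a stretch rich in t and c and then ag, as before an internal exon. Its CpG number is therefore not taken as that of a promoter.

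Both neurexins followed here rose. NRXN2 lies on the minus strand at chr11:64373646-64490660 and stood at 2.91 and 1.78 CPM in ESC replicates 1 and 2. The NEC replicates had 21.9 and 21.5 CPM. The level in NECs was several times that in either ESC library, and the means were 2.35 ± 0.80 and 21.7 ± 0.26 CPM (SD, n = 2 here and below). The log2 fold change was 3.23 (SE 0.24, edgeR adjusted p = 0.000125), or 9.23-fold. Counting was made without regard to strand, and the 2 noncoding genes that overlap NRXN2 in the table had 32 counts in all 4 libraries together.

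NRXN3, which spans 1622 kb at chr14:78708734-80330762, rose less steeply. Its ESC libraries held 3.39 and 3.44 CPM and its NEC libraries 16.9 and 12.8 CPM. The ESC values were nearly equal, and the NEC replicates differed from each other by less than either differed from the ESCs. The log2 fold change was 2.12 (SE 0.21, edgeR adjusted p = 0.000335), 4.36-fold. The 9 noncoding genes annotated within NRXN3 had no counts.

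The neuroligins, which receive the neurexins on the postsynaptic side, did not change alike. NLGN3 (chrX:70364681-70391051) rose from 11.2 and 7.93 CPM in ESCs to 67.0 and 77.9 CPM in NECs. At 2.93 on the log2 scale (SE 0.18, edgeR adjusted p = 6.7e-05), a 7.58-fold difference, it had the largest change of the 3 neuroligins. NLGN2 (chr17:7311502-7323179) had 95.8 and 80.4 CPM in ESCs and 227 and 223 CPM in NECs. The groups were well separated and the edgeR adjusted p was 0.000166, but the log2 fold change, 1.35 (SE 0.11), lay under the limit of 1.5, so the gene was not called. NLGN1 (chr3:173114074-174004434) had 5.99 and 7.81 CPM in ESCs beside 11.7 and 10.2 CPM in NECs, a difference of 0.66 on the log2 scale (SE 0.20, edgeR adjusted p = 0.0269). Without ESC replicate 1 the log2 fold change of NLGN1 was 0.47 and the adjusted p 0.162, without NEC replicate 1 the adjusted p was 0.0840, and in DESeq2's test it was 0.0591.

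The 2 contactins moved in opposite directions. CNTN2 (chr1:205012325-205047627), known as TAG-1 and first described on growing axons, had 3.87 and 1.70 CPM in the ESC libraries. In the NEC libraries it reached 50.5 and 48.9 CPM. The change of 4.20 on the log2 scale (SE 0.31, edgeR adjusted p = 0.000118), 17.9-fold, was the largest of the 9 genes. The 2 ESC libraries differed from each other, and the log2 fold change was 4.85 without ESC replicate 1 and 3.68 without ESC replicate 2. CNTN1 (chr12:41086244-41465772), the contactin that joins CNTNAP1 at the axon, fell from 5.19 and 5.78 CPM to 1.12 and 0.73 CPM. These levels rest on 98 and 143 reads in ESCs and 24 and 18 reads in NECs. The log2 fold change was −2.57 (SE 0.30, edgeR adjusted p = 0.000666), and the ESC level was 5.92 times the NEC level.

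CNTNAP1 and CNTNAP2, which pair with CNTN1 and CNTN2 respectively, also differed from each other. CNTNAP1 (chr17:40834632-40852010) had 13.7 and 11.4 CPM in ESCs and rose to 63.4 and 52.4 CPM in NECs, by 2.21 on the log2 scale (SE 0.15, edgeR adjusted p = 8.5e-05). It thus rose while CNTN1 fell. CNTNAP2 spans 2305 kb at chr7:145813453-148118090 and had 343 and 507 CPM in ESCs and 291 and 282 CPM in NECs. Both ESC libraries lay above both NEC libraries, but the ESC replicates were further apart than ESC replicate 1 was from either NEC library. The log2 fold change was −0.57 (SE 0.18, edgeR adjusted p = 0.0320), and without ESC replicate 2 it was −0.26 with an adjusted p of 0.219. The adjusted p was also above 0.05 without NEC replicate 2, at 0.0679. ESC replicate 2 also held more mesendoderm marker RNA, with 108 CPM over the 10 genes of that list. ESC replicate 1 had 39.5 CPM, and the NECs had 7.67 and 5.88 CPM. EOMES had 1133 counts there against 289 in ESC replicate 1, MSGN1 was at 0 in every library, and the part of these markers in the CNTNAP2 value was not tested.

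Because long transcripts collect more reads, levels of different genes were compared as CPM per kb of the canonical transcript in the annotation. In ESCs CNTNAP2 was the highest, at 45.0 CPM per kb, followed by NLGN2 at 17.7. NLGN3 and CNTNAP1 came next at 2.40 and 2.27 CPM per kb, and their libraries overlapped. CNTN1 stood at 0.97 CPM per kb, above a group formed by NLGN1, NRXN2, CNTN2 and NRXN3, at 0.28 to 0.42 CPM per kb, in which each neighbour in the order overlapped the next. In NECs NLGN2 was highest at 45.1 CPM per kb and CNTNAP2 second at 30.3. Below them came NLGN3, CNTNAP1, CNTN2, NRXN2, NRXN3 and NLGN1, from 18.2 down to 0.67 CPM per kb, and CNTN1 was lowest at 0.16. With these lengths, no neighbours in the NEC order overlapped. With the length of all annotated exons in place of the canonical transcript, CNTNAP1 came before NLGN3 in both cell types, CNTN1 also came before NLGN3 in ESCs, and the 2 highest genes in each cell type stayed the same. The lengths come from an annotation later than the one counted and can include exons that were not counted. The canonical NRXN3 transcript starts 72018 bases outside the counted gene, and NLGN1 ends further downstream in the later annotation. The places of NRXN3 and NLGN1 in these orders are therefore uncertain.

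A list of 9 other genes of these families was then examined, of which 6 passed the filter for low counts. Of these 6, 5 were called higher in NECs and none lower, beside 11.4% and 9.68% of all tested genes, and the median log2 fold change of the 6 was 3.38. CNTN3 had 0 and 5 counts in the ESC libraries and 570 and 465 in the NEC libraries, with an edgeR adjusted p of 9.5e-05. CNTN6 had 1 and 3 counts in ESCs and 66 and 60 in NECs, and CNTN4 had 6 and 17 counts in ESCs and 167 and 111 in NECs. Together with CNTN2, 4 of the contactins tested were therefore called higher, and CNTN1 was the one called lower. CNTNAP3 and CNTNAP3B were also called, with log2 fold changes of 2.32 and 3.21, but they are near-identical copies and the division of reads between them is uncertain. NLGN4X had a log2 fold change of −0.85 and was not called, and the placing of reads that also match a closely related copy is uncertain. CNTN5, CNTNAP4 and CNTNAP5 had at most 10 counts in any library and were not tested.

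Of a list of extracellular partners of neurexins and neuroligins, 22 of 27 were tested, and 5 were called higher and 5 lower, beside 11.4% and 9.68% of all tested genes. The list also holds FLRT1, FLRT2 and FLRT3, which are ligands of latrophilins and not direct partners. FLRT1 and FLRT3 were among the 5 called higher. The median log2 fold change was 0.39. The higher genes of the list included MDGA1, which binds neuroligins and keeps neurexins from them, with 1 and 9 counts in ESCs and 619 and 380 in NECs. Its relative MDGA2 went the other way, with a log2 fold change of −1.73. CLSTN2, a calsyntenin, had a log2 fold change of 5.26, FLRT3, a ligand of latrophilins, one of 2.96, and the latrophilin LPHN3 one of 2.72. CBLN1, a cerebellin that binds neurexins, fell from 19.3 and 17.8 CPM to 3.84 and 2.59 CPM (log2 fold change −2.53). C1QL3 and IGSF21, at −2.32 and −1.75 on the log2 scale, and LRRTM1, at −1.65, completed the lower partners.

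Inside the cell, 2 of 20 scaffold genes were called higher and 2 lower, which is close to the 11.4% and 9.68% of all tested genes, with a median log2 fold change of 0.40. SHANK1, an organiser of the postsynaptic density, had 21 and 14 counts in ESCs and 447 and 612 in NECs (log2 fold change 4.80), and its relative SHANK3 had a log2 fold change of 1.59. MAGI2 and LIN7A, scaffolds with PDZ domains, had log2 fold changes of −2.19 and −1.69. CASK, the kinase-like scaffold that binds the tails of neurexins, had a log2 fold change of 0.36 and DLG4, which encodes PSD-95 and binds neuroligins, one of 1.22, and neither was called. Among partners of contactins and CNTNAPs, 2 of the 17 tested were called higher and none lower, and the share called higher is close to the 11.4% of all tested genes. Of all tested genes, 9.68% were called lower. The list's median log2 fold change was −0.12. The called partners were NRCAM, at 6.41 and 6.43 CPM in ESCs and 113 and 103 CPM in NECs, and its relative CHL1, with 1 and 1 counts in ESCs and 122 and 62 in NECs. NFASC, the neurofascin that binds CNTN1 and CNTNAP1 where myelin meets the axon, had a log2 fold change of −0.67 and was not called. All of these lists were drawn up with earlier results of these data known, and their counts are a description.

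**Figure D2:**
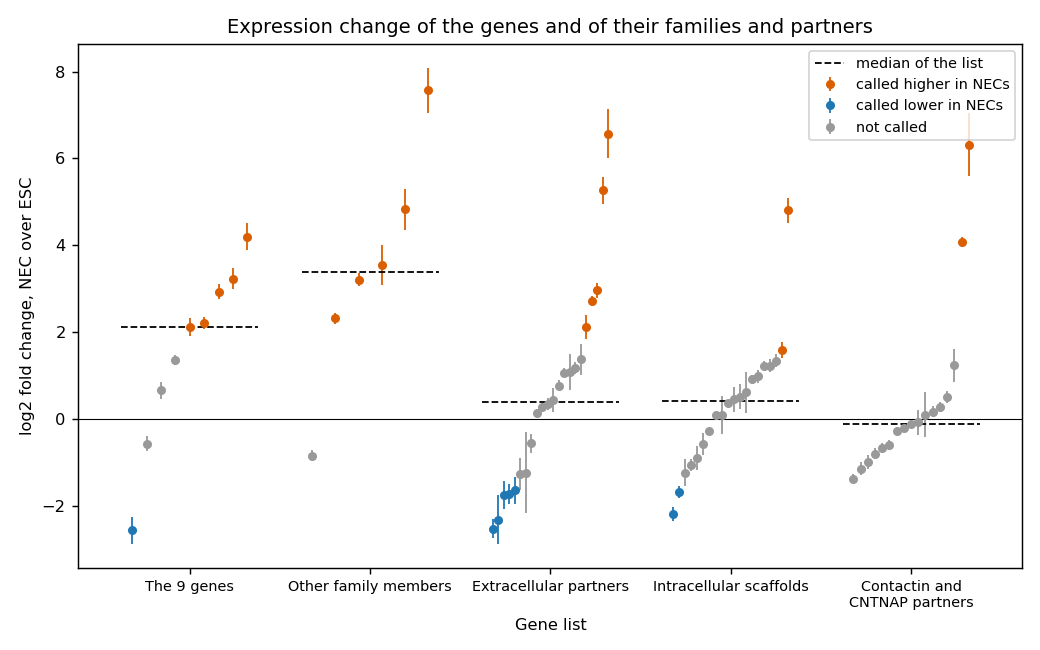
Log2 fold change (NEC over ESC) of each tested gene, for the 9 genes and for 4 lists of relatives and partners. Points are genes with their SE, coloured by the call, and dashed lines are list medians. The medians of the 9 genes (2.12) and of the other family members (3.38) lie above those of the partner and scaffold lists (−0.12 to 0.40).

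Promoter interactions were then described from the PCHi-C lists. PCHi-C pulls ligation products of promoter fragments out of a Hi-C library, and the CHiCAGO score of a pair rises as the contact exceeds what distance and fragment properties would give. Pairs scoring 12 or more are listed, for each replicate and for the merged replicates of a cell type. The fragment that a bait contacts in such a pair is its promoter-interacting region (PIR). Scores come without read numbers, so the depth behind a single call is unknown. With 2 replicates against 2 no permutation test can reach 0.05, and differences between cell types were set beside the differences between replicates.

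In the merged lists 40 PIRs of the 9 promoters were found for ESCs and 39 for NECs, and 17 were the same fragments. The median number per promoter was 3 in ESCs and 2 in NECs, beside 2 in each over all baits, those without a call included. NLGN2 alone held 21 of the ESC and 19 of the NEC PIRs and 12 of the shared ones. Its bait also holds the starts of PLSCR3 and C17orf61 in a gene-dense stretch of chromosome 17, and the bait of CNTNAP1 holds those of PLEKHH3 and CCR10, so contacts of these 2 baits cannot be assigned to one gene. The other 7 baits hold the start of 1 gene each. CNTN1 had no PIR in either merged list and NLGN1 none in the ESC list. All contacts lay on the chromosome of the promoter.

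Repeat calls were few. The 4 replicate lists together held 96 pairs for the 9 promoters, and 82 of them (85.4%) were called in 1 replicate, beside 78.8% of pairs for all baits. A single pair (1.04%) was called in all 4 replicates, beside 2.85% over all baits. None was called in both NEC replicates and no ESC replicate, and none in both ESC replicates and no NEC replicate, where 2.46% and 2.56% of all pairs were. The median distance of the 96 pairs was 373 kb, and that of all pairs on 1 chromosome was 467 kb.

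**Figure D3:**
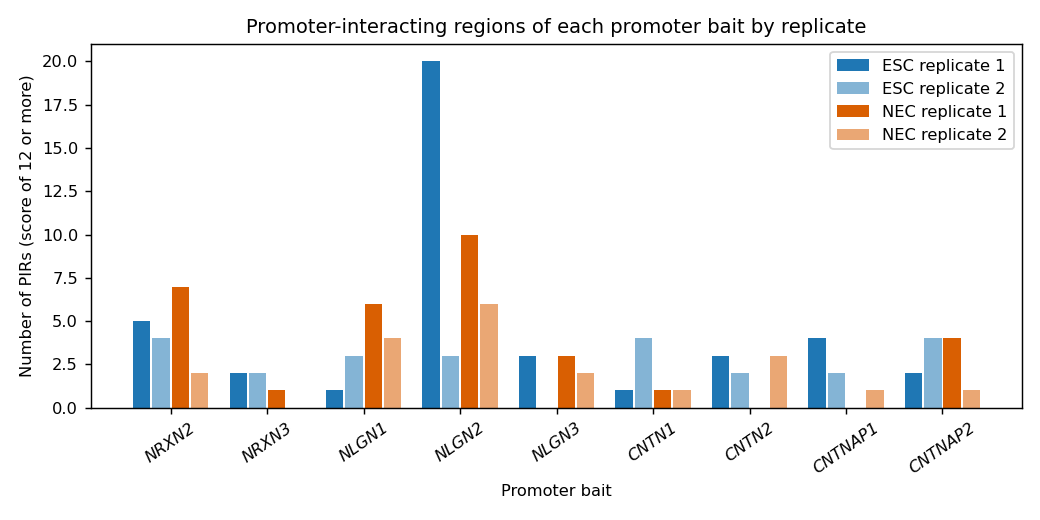
Number of PIRs (score of 12 or more) of each of the 9 promoter baits in the 4 PCHi-C replicates, with ESCs in blue and NECs in orange. The NLGN2 bars reach 20 for ESC replicate 1 and 3 for replicate 2, and for 6 of the 9 promoters the ESC and NEC bars overlap in height.

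For 6 of the 9 promoters the PIR numbers of the ESC replicates overlapped those of the NEC replicates. NLGN1 was the one promoter with more PIRs in both NEC replicates (6 and 4) than in both ESC replicates (1 and 3). Over all baits with a call, 13.2% showed this order. NRXN3, with 2 and 2 against 1 and 0, and CNTNAP1, with 4 and 2 against 0 and 1, showed the reverse, as did 12.9% of all baits. These shares, 1 and 2 of 9, are near the background. NRXN3 and CNTNAP1 were both called higher in NECs, and NLGN1 was not called in expression. None of the 14 NLGN1 pairs was called in more than 1 replicate, so its higher NEC number came from different fragments in the 2 libraries.

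NRXN2 had the one pair of the 9 promoters that was called in every replicate. The nearest protein-coding gene to the PIR at chr11:64312301-64322631 is SLC22A11, 0.5 kb away. This PIR lies 177 kb downstream of the bait, past the end of NRXN2 and between genes. It scored 13.2 and 13.7 for ESC replicates 1 and 2, 12.01 and 12.3 for NEC replicates 1 and 2, and 15.9 and 13.8 in the merged lists. The pair was thus present in cells that differed 9.23-fold in NRXN2 expression. The highest merged score of NRXN2 in NECs belonged to chr11:64163661-64170059, 328 kb downstream, with 16.1. That fragment scored 17.2 in NEC replicate 1 and was in no other replicate list. Of the 18 NRXN2 pairs in any list, 17 lay on the downstream side and 3 of these were inside the gene.

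The fragment taken as the NRXN3 promoter holds the start in the count table and not that of the canonical transcript. It made few calls, 7 in any list, and all of them were inside the gene at 312 to 998 kb from the bait. None was seen in more than 1 replicate. From the other side, however, the same fragment was reached from a second NRXN3 bait, chr14:78856357-78870336, which holds the starts of 2 annotated NRXN3 transcripts 152 kb away. That contact was called in all 4 replicates, with scores of 19.3 and 18.6 in ESCs and 15.3 and 15.3 in NECs, and with 23.9 and 15.9 in the merged lists. Both ESC scores were above both NEC scores, in the direction opposite to that of NRXN3 expression. The second bait itself had 5 and 5 PIRs in ESCs against 4 and 5 in NECs.

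A search for the core of RE1, the element bound by the repressor REST that silences neuronal genes outside neurons, was made over all baits because the 9 genes are neuronal. The half-sites CAGCACC and GGACAG, with any 2 bases between them, were searched on both strands, and 143 of 21833 baits (0.655%) held them. Among the baits of the 9 gene starts, that of CNTNAP2 held a match, and so did the second NRXN3 bait. The matches are shown in capitals with 20 bases on each side, along the strand of the motif.
CNTNAP2, chr7:145813005-145813059, plus strand: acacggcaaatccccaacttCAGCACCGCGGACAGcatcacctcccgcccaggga
NRXN3, chr14:78865818-78865872, minus strand: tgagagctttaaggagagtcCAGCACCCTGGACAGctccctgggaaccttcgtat
The CNTNAP2 match ended 414 bases before the gene start, outside the gene-start windows described above, of which 0.0549% held the motif. CNTNAP2 was the highest of the 9 genes in ESCs per length, and NRXN3 was among the lowest with the lengths used. A match of letters does not show binding, and binding was not measured here. Any part of these matches in the levels was not tested.

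The neuroligin promoters differed widely in their contacts. For NLGN2 the highest merged scores in both cell types belonged to chr17:7447343-7457281, 142 kb downstream, which is the promoter bait of TNFSF12, with 19.6 in ESCs and 17.9 in NECs. The replicates gave 13.8 and 13.2 in ESCs and 13.5 in NEC replicate 1. Of the 35 NLGN2 pairs in any list, 16 led to other promoter baits, and 4 were called in 3 replicates. Over all baits, 67417 of the 274669 pairs called in a replicate led to another bait. The ESC replicates listed 20 and 3 PIRs for this bait, so the 10 and 6 PIRs of the NEC replicates fell between the ESC values. Counted from the other side, baits at 17 fragments called the NLGN2 fragment. Those of ZBTB4 and POLR2A (16.8 in ESC replicate 2, 16.1 in NEC replicate 2), of SENP3 and TNFSF13, and of EIF4A1 did so in all 4 replicates.

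NLGN3 had 10 pairs in any list, none in more than 1 replicate, and 3, 0, 3 and 2 PIRs in ESC replicates 1 and 2 and NEC replicates 1 and 2. The highest merged NEC score was 14.4, for chrX:70210798-70219607 upstream of the gene. In the merged ESC list the highest was 12.03, for a nearby fragment, chrX:70224216-70232006. A single call in NEC replicate 2, with a score of 12.3, led to the promoter bait of DLG3, which encodes a scaffold protein of the postsynaptic density, 701 kb upstream. DLG3 had a log2 fold change of −0.29 and was not called. For NLGN1 the highest score in the merged NEC list was 13.3, at chr3:174057628-174059508, in the intergenic stretch downstream of the gene.

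The NLGN1 fragment was called from 7 other baits. The bait of the downstream gene NAALADL2, 1038 kb away, called it in both NEC replicates (12.5 and 13.1) and in no ESC replicate, with 14.4 in the merged NEC list. A bait at chr3:172691414-172693739 did the reverse, with 12.4 and 17.6 in the ESC replicates and none in NECs. The bait of NLGN1-AS1 within the gene called it in ESC replicate 1 (21.1) and in both NEC replicates (15.7 and 12.7). Over the 9 promoters, 31 such calls from other baits were found in a replicate. Of these, 4 were in all 4 replicates, 3 in both NEC and no ESC replicate, and 1 in both ESC and no NEC replicate. Over all calls between baits these patterns made up 6.70%, 3.06% and 3.87%. The 3 calls in both NEC replicates alone led from NAALADL2 to NLGN1, from FXR2 to NLGN2 (15.2 and 13.7) and from TMEM223 and TMEM179B to NRXN2 (12.01 and 13.0), and the FXR2 contact was also in the merged ESC list with 12.2.

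The contactin promoters had short lists. CNTN2 contacted a second bait inside its own gene, chr1:205024895-205032271 at 13.4 kb, which had its highest merged score in both cell types, 18.9 in ESCs and 17.7 in NECs. The replicate scores were 13.4 and 12.5 in ESCs and the list's minimum of 12 in NEC replicate 2, with no call in NEC replicate 1. The contact was thus called in cells with 2.78 CPM and in cells with 49.7 CPM of CNTN2 on average. CNTN2 also contacted the neighbouring NFASC promoter bait, 217 kb upstream, in ESC replicate 1 (14.3) and in the merged ESC list (14.8). Other parts of NFASC were contacted in ESC replicate 2, in the merged ESC list and in the merged NEC list, at 12.3 to 13.0. CNTN1 had 7 pairs, each in 1 replicate and none in a merged list, with 1, 4, 1 and 1 PIRs in the 4 replicates. They lay 191 to 1700 kb away, and the highest score was 14.95, in ESC replicate 2.

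CNTNAP1 contacted the fragment at chr17:40723806-40730693, the promoter bait of PSMC3IP 104 kb upstream, in ESC replicate 1 (13.1) and NEC replicate 2 (14.7). It was the highest merged score of CNTNAP1 in both cell types, at 13.7 and 17.2. Of its 8 pairs in any list, 6 led to promoter baits, where 67417 of the 274669 replicate pairs of all baits did. The bait of the myelin gene CNP, 713 kb upstream, was called in ESC replicate 1 alone (14.1) and in no merged list. CNTNAP2 differed in that 8 of its 11 pairs lay within its own gene, at 605 to 2118 kb from the start, and none led to another promoter bait. Each was seen in 1 replicate. The highest score was 15.2, in NEC replicate 2, at chr7:147780779-147782019. The fragment before it and another a little further on were called in NEC replicate 1 with 13.3 and 13.5, so calls of both NEC replicates fell in this stretch of intron without meeting on 1 fragment. The ESC replicates also had calls near each other. ESC replicate 1 called chr7:146673702-146685685 (13.15) and ESC replicate 2 chr7:146727190-146733612 (12.92), both intronic. The highest merged scores were 13.66 in ESCs, for the first of these, and 13.64 in NECs.

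Contacts inside the gene were mostly those of the longest genes. The 9 genes had a median span of 117 kb, against 16.7 kb for all genes in the table, and NRXN3 and CNTNAP2 are among the 69 genes longer than 1 Mb there. All 7 NRXN3 pairs and 8 of the 11 CNTNAP2 pairs were intragenic, as were 4 of the 14 NLGN1 pairs and 3 of the 18 NRXN2 pairs. NLGN2, CNTN1 and CNTN2 had 1 such pair each, and NLGN3 and CNTNAP1 had none.

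**Figure D4:**
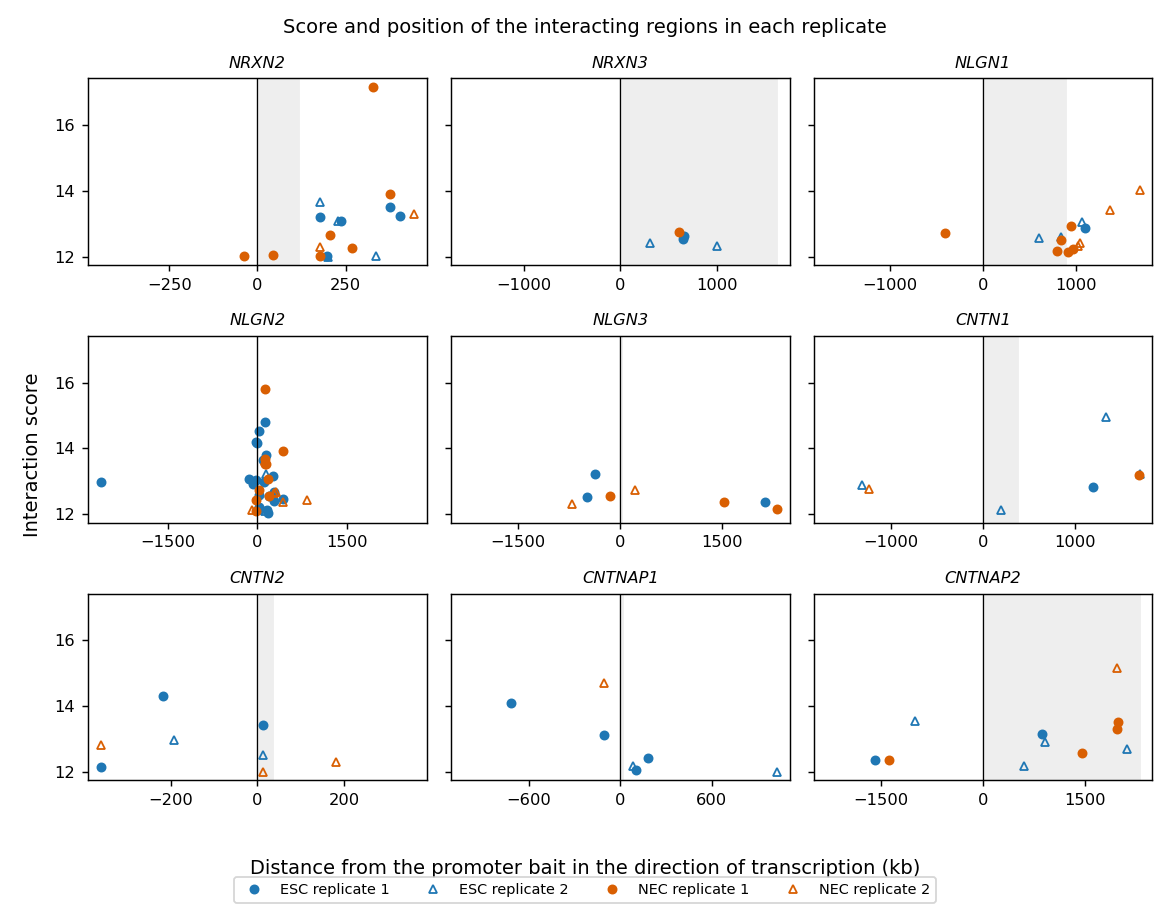
Score of each PIR against its distance from the promoter bait (kb, positive in the direction of transcription) for the 9 genes, by replicate. Each panel has its own distance axis, ESCs are blue and NECs orange, filled circles are replicate 1 and open triangles replicate 2, and grey marks the gene. Calls of NRXN3 and most of CNTNAP2 fall on the grey gene body, and those of NRXN2 lie mostly beyond its end.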

How the data were processed

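The gene counts are the whole-number read counts that the authors deposited, made from single-end RNA-seq reads aligned to GRCh37 (hg19) and counted on Ensembl genes without regard to strand. The interaction score of each fragment pair is the CHiCAGO score the authors deposited, for single and merged replicates, in lists that start at 12. Per the submitters' processing notes, tools included Bowtie 1.0.0 and TopHat2 2.0.8b.

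Counts were filtered with filterByExpr (minimum count 10), scaled by TMM and tested over all genes with edgeR 4.0.16 in R 4.3.3. DESeq2 1.42.0 was an alternative, and both were tested on simulated data. Interactions and sequences were read with Python 3.11.15, pandas 2.3.3 and pysam 0.24.0. Sequences are from the GRCh37 assembly, and transcripts from a GENCODE annotation lifted to it, which is later than the authors' gene set. Replicates are biological. The p-values test each difference against the variation between 2 replicates per cell type, all from 1 cell line.

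All 9 genes, the lists of relatives, partners and markers, and the tests were chosen with earlier results of these data known. Named list members are those called, up to 4 in each direction with the largest change, and named PIRs have the highest merged score or were called in all 4 replicates. Those outside this rule (CNTNAP3, NLGN4X, CNTN5, CNTNAP4, CNTNAP5, FLRT1, FLRT2, LRRTM1, CASK, DLG3, DLG4, NFASC, the marker genes named, single-replicate PIRs and calls from other baits) were chosen after their values were seen. Alternatives were other scalings, filters and tests, a replicate block, leaving out each replicate, a score of at least 15, PIRs within 10 kb counted as shared, and baits of every annotated transcript start. The Hi-C libraries were not used here, and some genes and sequences are not reported here.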

Additional observations from a re-analysis of the deposited data

How the results depend on the processing

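The same 5 genes were called higher and CNTN1 lower under DESeq2's size factors, library size alone, no filter on low counts, DESeq2's test and without each of the 4 libraries. Without the fold change threshold, 7 genes were called higher and 2 lower, the second being CNTNAP2. Of all tested genes, 31.5% were called higher and 29.7% lower in that setting. With the replicate number as a block, 5 were called higher and 1 lower. Nothing states that equal numbers share a culture. The deviations of same-numbered libraries had a correlation of 0.07 (2 pairs), which cannot decide this with 2 libraries per cell type. No log2 fold change of the 9 genes changed sign in 90 alternative values, and the largest move was 0.65, for CNTN2 without ESC replicate 1. The values without the fold change threshold are among the 90 and are those of the main fit, so they could not differ.

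PIR numbers depended on the settings. With a score of at least 15, the merged ESC list held 11 PIRs, the NEC list 7, and 4 were shared, and no promoter had more PIRs in both replicates of a cell type (0 in either direction). Counting PIRs within 10 kb as shared gave 28 shared PIRs. With the baits of every annotated transcript start, there were 109 PIRs in ESCs, 112 in NECs and 54 shared. Leaving out 1 PCHi-C replicate, 1 to 3 promoters had more PIRs in NECs and 3 to 4 more in ESCs. The 3 in NECs came without ESC replicate 1, and the 4 in ESCs without NEC replicate 1. The share of all baits with such an order was not computed with a replicate left out. Fewer values have to be separated there, so the shares given above for all replicates do not apply. Whether these counts differ from the background was not tested. The depth behind each score is unknown.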

Other observations

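Several of the 9 genes have further baits at annotated transcript starts inside the gene, and some made more calls than the gene start. A bait in NRXN2, chr11:64415879-64426615, which also holds the start of a noncoding gene, listed 18 PIRs in ESC replicate 1, 2 in ESC replicate 2, 31 in NEC replicate 1 and 7 in NEC replicate 2, beside 5, 4, 7 and 2 for the bait of the NRXN2 start. Replicates 1 of both cell types were the high ones. The merged lists gave it 17 PIRs in ESCs and 32 in NECs. The bait within CNTN2 at chr1:205024895-205032271, which holds 15 annotated transcript starts, listed 8 and 6 PIRs for ESCs against 7 and 6 for NECs, with 27 and 21 in the merged lists. A further NRXN3 bait, chr14:79161001-79166999, listed 2 and 4 PIRs for ESCs against 2 and 6 for NECs. None of these had more PIRs in both replicates of one cell type than in both of the other.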
